A study of Mus musculus with 2 samples.

Results

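Methylation along the Bdnf gene was read in a 65-kb window of mouse chromosome 2, positions 109508000 to 109573000 of build mm9, in 1 hippocampal library from ATO-exposed offspring and 1 from a control. The members were the CpG cytosines of this window with at least 10 reads in both libraries, and there were 256 of them among 2312276 such cytosines in the whole series. The rule that picks the members uses position and coverage, not methylation levels, although the locus was proposed with earlier results of these data known. The ATO library came from C57BL/6 offspring exposed to arsenic trioxide (ATO) at 5000 ppb in drinking water. Their exposure began before their parents mated, lasted to the end of lactation and continued by their own drinking water after weaning. The control library came from C57BL/6 mice with no treatment. Age and sex are not given, nor is it said whether a library holds 1 animal or several. With 1 library a group, every difference below is between 2 libraries and has no replicate check. The tables hold no expression values, so the tissue label was not checked against marker genes. A level in whole hippocampus is an average over all its cell types.

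Bdnf encodes brain-derived neurotrophic factor, a secreted protein that acts through the receptor TrkB and is needed for synaptic plasticity in the hippocampus. The gene has several alternative first exons, each with its own promoter, which are spliced to a shared last exon that holds the coding sequence. Neuronal activity switches on some of these promoters more than others. CpG-rich promoters are usually unmethylated, while the bodies of transcribed genes are usually methylated. Methylation of CpGs in rodent Bdnf promoters has often been studied for its link to transcription in neurons.

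RefSeq lists 7 Bdnf start sites with their promoter sequences in build GRCm38.p6, and mm9 positions were not taken from these coordinates. Each 300-base promoter sequence was instead laid on the listed cytosines of chromosome 2 by the spacing of its CpGs. A total of 3 of the 7 fitted at 1 place only, inside the window. They are called P1, P3 and P5 here, by their order along the gene. P1 fitted with 14 of 14 listed cytosines on a CpG, P3 with 22 of 23 and P5 with 17 of 17. Scored as cytosines on a CpG minus cytosines off one, they reached 14, 21 and 17, while the next best places on the chromosome reached 8, 8 and 7. This put the start sites at 109514857 for P1, 109532593 for P3 and 109534566 for P5 of mm9. The other 4 sequences had no fit of this margin inside the window and are not placed. P3 and P5 are the promoters with analysed cytosines. Their 250 bases upstream of the start site follow, read 5′ to 3′ on the plus strand, with the analysed CpGs in capitals. P3 lies at chr2:109692186-109692435 and P5 at chr2:109694159-109694408 of GRCm38.p6 (RefSeq).
P3: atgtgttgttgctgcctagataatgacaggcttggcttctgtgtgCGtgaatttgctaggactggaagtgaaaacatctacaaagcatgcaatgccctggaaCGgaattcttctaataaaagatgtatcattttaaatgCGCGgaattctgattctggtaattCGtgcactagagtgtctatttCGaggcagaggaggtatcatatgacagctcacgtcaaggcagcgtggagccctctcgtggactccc
P5: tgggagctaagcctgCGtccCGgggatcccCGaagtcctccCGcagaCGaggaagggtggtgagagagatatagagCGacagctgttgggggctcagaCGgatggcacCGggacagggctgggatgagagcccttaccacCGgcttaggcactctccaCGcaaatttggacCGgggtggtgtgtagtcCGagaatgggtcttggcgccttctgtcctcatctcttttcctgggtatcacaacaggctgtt
P3 holds 9 CpGs and P5 holds 13 in these bases, against a median of 6 over the 32851 promoter sequences of the RefSeq table. The observed to expected CpG ratio was 0.71 in P3 and 0.60 in P5.

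Both strands were searched in P1, P3 and P5 for TCACGTCA, TGACGTCA, CACGTG and GGGCGG. The only match was TCACGTCA in P3, from base -38 to base -31 relative to the start site. TCACGTCA is known from rodent Bdnf as the cAMP response element of the activity-dependent promoter named IV. It occurs in 0.35% of the 32851 promoter sequences. TGACGTCA occurs in 1.55%, CACGTG in 6.02% and GGGCGG in 32.7% of them. These matches describe the letters only.

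The window held 12365 C or T calls at analysed cytosines in the ATO library and 11838 in the control library. Coverage per cytosine ran from 11 to 163 reads with a median of 37 in the ATO library, and from 11 to 171 with a median of 38 in the control library. All 256 cytosines were on the reverse strand. Most were unmethylated, as 213 in the ATO library and 214 in the control library read under 10%. A level of exactly 0% was read at 141 cytosines in the ATO library and at 127 in the control library. Analysed cytosines were grouped into stretches, runs with no gap over 200 bp between neighbours. There were 11 stretches of at least 5 cytosines, which held 255 of the 256 members and are numbered along the chromosome. The remaining cytosine, at 109532110, read 1 C in 16 calls in the ATO library and 0 in 17 in the control library. Among the least covered members were those at 109534505 and 109517770, with 11 reads each in the ATO library and 22 and 13 in the control library. The cytosines at 109514481, with 8 and 10 reads in the ATO and control libraries, and at 109563956, with 10 and 9, were just outside the coverage minimum. Their levels were 0% and 100% in each library.

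**Figure D1:**
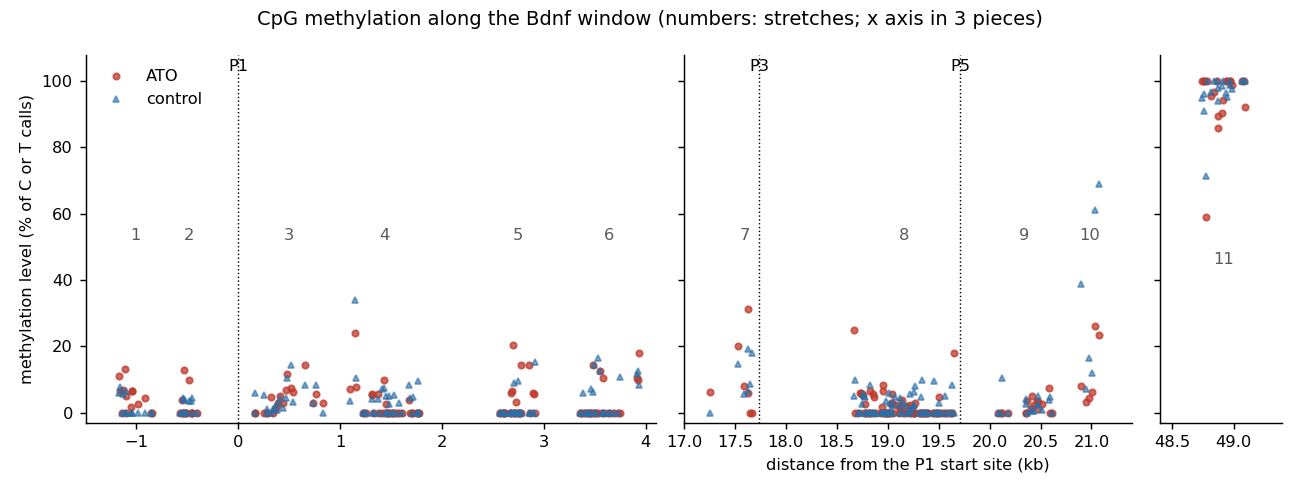
Methylation level of each of the 256 analysed cytosines (y axis, % of C or T calls) against distance from the P1 start site (x axis, kb, cut into 3 pieces), with ATO as circles and control as triangles. Dotted lines mark the placed start sites and numbers mark the stretches. Stretches 1 to 9 lie low in both libraries, stretch 11 lies near 100%, and the libraries part at stretch 10.

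Along the gene the profile had the same 3 parts in both libraries. A first unmethylated cluster, stretches 1 to 6, covered 5105 bp around P1. A second cluster, stretches 7 to 10, covered 3538 bp around P3 and P5, and began 13599 bp after the first. The last stretch, 27673 bp beyond stretch 10, was almost fully methylated. Compared with the control library, 6 of the 11 stretches were lower in the ATO library and 5 were higher; by the mean of cytosine levels instead of summed calls, 8 were lower and 3 higher. The single large difference was at stretch 10, the downstream end of the second cluster.

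The cluster around P1 was unmethylated in both libraries. Its 132 analysed cytosines averaged 2.98% ± 4.90 in the ATO library and 2.93% ± 4.87 in the control library (SD over cytosines). The mean difference was 0.053 points. At 58 of them neither library had a C call. Stretch 1, from base -1171 to base -849 relative to the P1 start site, read 4.81% in the ATO library and 2.25% in the control library over 14 cytosines. The ATO library was higher at 8 of the 14 and lower at 2. The other 5 stretches lay between 2.09% and 4.96% in the ATO library and between 1.21% and 4.41% in the control library. Differences over the 6 stretches ran from -1.85 points in stretch 4 to 2.56 points in stretch 1, and the 95% interval of each included 0. These intervals (Newcombe) cover counting error only, as do all exact binomial (Clopper-Pearson) intervals given here.

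Single cytosines departed from this low level at a few places. The cytosine at 109516004 in stretch 4, read 24.0% in the ATO library (12 of 50 calls, exact 95% interval 13.1 to 38.2) and 34.0% in the control library (17 of 50, 21.2 to 48.8). It was the highest cytosine of the cluster in each library. Among cytosines with at least 20 reads in both libraries, the highest positive difference was at 109517557 in stretch 5, with 20.6% in the ATO library (7 of 34 calls) and 0% in the control library (0 of 22). The 2 next were at 109517706, with 14.3% and 0%, and at 109513741, with 13.2% and 0% in the ATO and control libraries. None of these 3 was called, with adjusted p of 0.32, 0.61 and 0.18 by Fisher's exact test with Benjamini-Hochberg adjustment over all 2312276 cytosines.

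P1 itself held no analysed cytosine. Its 14 listed cytosines had too few reads, and 0 of 41 calls in the ATO library and 0 of 48 in the control library were C. The exact 95% intervals reach 8.60% and 7.40%, but they take the calls as independent. No cytosine of P1 had more than 5 reads in the ATO library or 9 in the control library. The same reads can cross several of its CpGs, so levels above these limits remain possible.

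Stretch 7 is the upstream part of P3, from base -205 to base -66 relative to its start site. Its level stood above that of the unmethylated stretches in both libraries. The 6 cytosines read 10.9% in the ATO library (interval 4.19 to 22.6) and 11.4% in the control library (2.45 to 30.2). The difference was -0.49 points, with an interval from -18.8 to 13.0. The CpG at base -109 was the highest, with 31.3% in the ATO library (21 of 67 calls) and 19.4% in the control library (6 of 31). Its neighbour at base -111, in the CGCG printed in capitals above, read 5.88% in the ATO library and 6.45% in the control library. The outer CpG at base -205 read 20% in the ATO library and 14.8% in the control library.

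The 2 analysed CpGs nearest the start site had no C call in the ATO library. The CpG at base -87 read 0% in the ATO library (0 of 57 calls) and 8.70% in the control library (2 of 23). The CpG at base -66 read 0% in the ATO library (0 of 43) and 18.2% in the control library (2 of 11), which has an exact interval from 2.28 to 51.8. Neither was called, with adjusted p of 0.50 and 0.34 by Fisher's exact test with Benjamini-Hochberg adjustment. The CpG inside TCACGTCA fell below the coverage minimum. On the reverse strand it read 0 C in 17 calls in the ATO library and 0 in 4 in the control library. Over all 16 shallow cytosines of the 300-base P3 sequence, on both strands, 0 of 57 calls in the ATO library and 0 of 10 in the control library were C. The exact interval of the control library reaches 30.8% there, and it is too narrow where the same reads cross several CpGs.

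**Figure D2:**
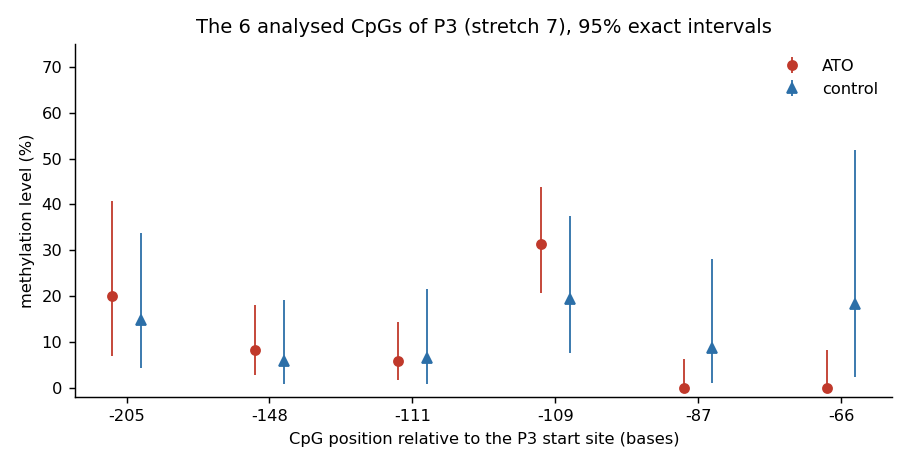
Methylation level (y axis, %) of the 6 analysed CpGs of P3 by position relative to the start site (x axis, bases), with ATO as circles, control as triangles and bars for 95% exact intervals. The CpG at -109 is highest in each library, and the intervals of the libraries overlap at each CpG.

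Stretch 8 is the CpG-richest part of the second cluster and ends in P5. Over its 74 cytosines it read 1.498% in the ATO library (interval 0.185 to 5.41) and 1.96% in the control library (0.482 to 6.65). Its upstream edge, at 109533529, read 25% in the ATO library (4 of 16 calls) and 5% in the control library (1 of 20), and was not called (Fisher's exact test, adjusted p = 0.67). Inside P5, 10 of the 12 analysed CpGs had no C call in the ATO library and 9 of 12 had none in the control library. Their summed level was 1.01% in the ATO library and 1.30% in the control library. Stretch 9, which lies 369 to 899 bp after the P5 start site, read 2.51% in the ATO library and 2.12% in the control library over 17 cytosines. With median coverages of 67 and 77 reads, it was among the best read parts of the gene.

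Taking the 8 stretches under 10% as a group, their 223 cytosines averaged 2.51% ± 4.48 in the ATO library and 2.55% ± 4.18 in the control library (SD over cytosines). The ATO library was the lower at 66 of these cytosines and the higher at 63. The mean difference was -0.033 points. Over the 20278 stretches of that class in the series the mean difference was -0.020 points and the median 0 points.

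**Figure D3:**
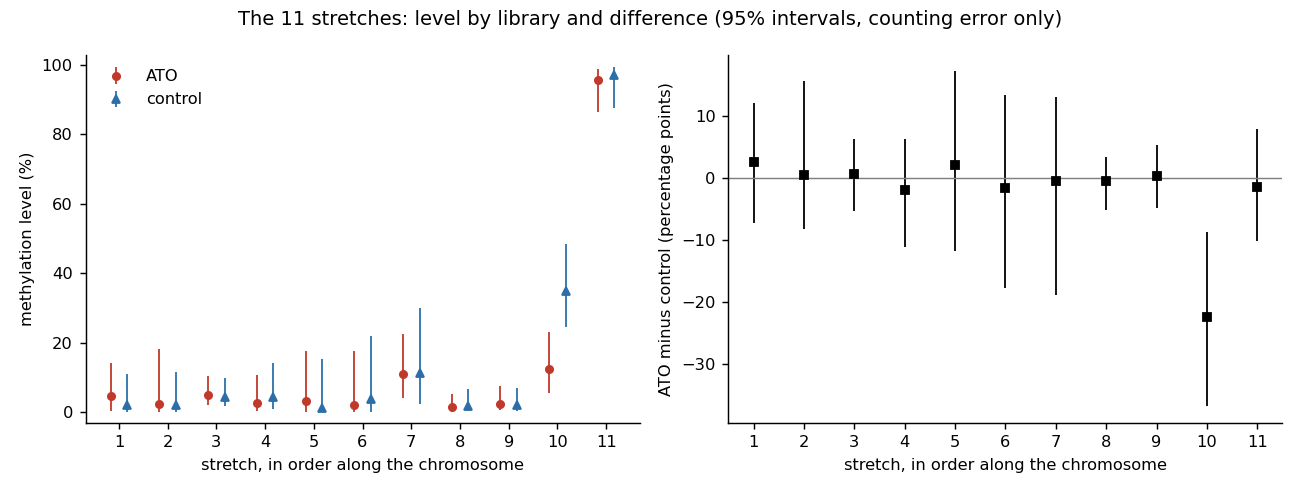
Left, summed methylation level (y axis, %) of each stretch (x axis, order along the chromosome), with ATO as circles and control as triangles. Right, ATO minus control in percentage points; bars are 95% intervals for counting error. Stretch 10 has the only interval that does not include 0, from -36.7 to -8.69 points.

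Stretch 10, the last part of the second cluster, was lower in the ATO library. It lies at 109535753 to 109535926, 1187 to 1360 bp after the P5 start site and 288 bp beyond the unmethylated stretch 9. Its 6 cytosines read 12.6% in the ATO library (48 of 382 calls, interval 5.55 to 23.2) and 35.0% in the control library (141 of 403, 24.5 to 48.5), a difference of -22.4 points. All 6 cytosines were lower in the ATO library, with differences from -45.6 to -4.15 points. The difference lay mostly in the cytosines farthest from P5.

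The cytosine at 109535926 read 23.4% in the ATO library (15 of 64 calls, interval 13.8 to 35.7) and 69.0% in the control library (49 of 71, 56.9 to 79.5). The one before it, at 109535890, read 26.3% in the ATO library (21 of 80, 17.04 to 37.3) and 61.1% in the control library (58 of 95, 50.5 to 70.9). Their adjusted p by Fisher's exact test was 3.0e-05 and 0.00047. They were the only cytosines of the window called, which needs an adjusted p under 0.05 and a difference of at least 25 points. They lie 36 bp apart and can share reads, so they are not independent.

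At the other 4 cytosines of stretch 10 levels were lower in both libraries. At 109535753 the ATO library read 8% (2 of 25 calls) and the control library 38.9% (7 of 18), with adjusted p = 0.25 by Fisher's exact test. The 3 between it and the called cytosines read 3.13%, 4.41% and 6.17% in the ATO library and 7.27%, 16.7% and 12.0% in the control library. In both libraries the 2 cytosines farthest from P5 stood above the 3 before them, and more so in the control library. The next listed cytosine upstream, at 109535705, had 1 C in 10 calls in the ATO library and 0 in 6 in the control library. The next one downstream, at 109536101, had 1 call in the control library and none in the ATO library, so the levels beyond stretch 10 could not be seen.

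**Figure D4:**
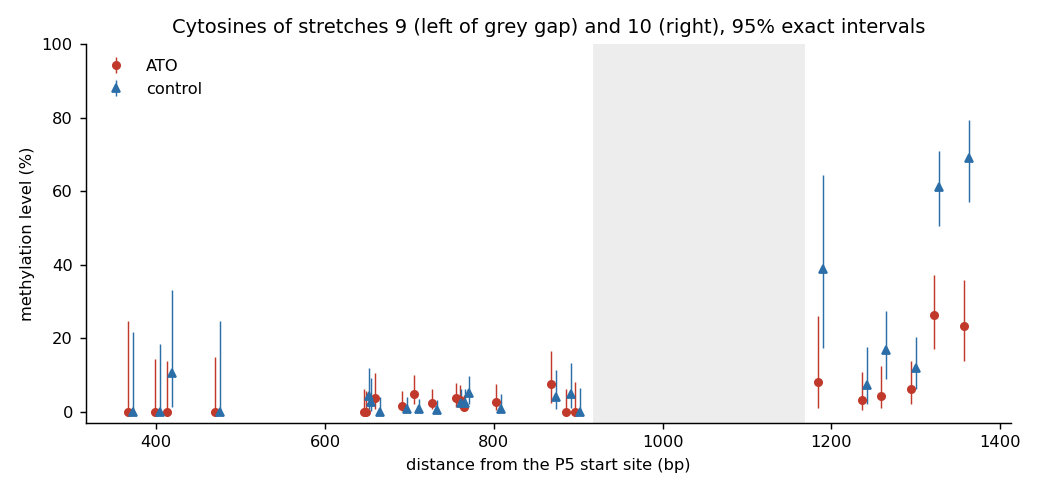
Methylation level (y axis, %) of the cytosines of stretches 9 and 10 against distance from the P5 start site (x axis, bp), with ATO as circles, control as triangles and bars for 95% exact intervals. Points are shifted sideways by 3 bp for sight, and the grey band is the gap without analysed cytosines. The last 2 cytosines read 26.3% and 23.4% in the ATO library and 61.1% and 69.0% in the control library.

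The calls must be read against the series and the counting. Among all cytosines 2.65% were called, and in the window 2 of 256 (0.78%). Both calls were lower in the ATO library. Over the series 40035 of the 61225 called cytosines were lower, which is 1.73% of all cytosines. By the mean of both libraries, cytosines under 10% made up 219 of the 256. At such a mean the libraries cannot differ by the 25 points a called cytosine needs. That 0 of the 1032184 such cytosines of the series were called thus follows from the threshold. For the same reason, 2 of 256 is not a like comparison with the series. Of the 6 window cytosines between 20 and 80%, by the mean of both libraries, 2 were called and 5 were lower in the ATO library, while 9.26% of the 611859 such cytosines of the series were called. At the level of stretches, 0 of the 11 were called. In the series 2.26% of the 110832 were called, and 4.92% of those between 20 and 80%, the class of stretch 10. At their mean levels, the 8 stretches under 10% and stretch 11 could not differ by the 20 points a call needs. Only stretches 7 and 10 could be called, so 0 of 11 is not a like comparison with the series. The stretch test divides the summed calls for shared fragments. Stretch 10 had an adjusted p of 0.071 by Fisher's exact test with Benjamini-Hochberg adjustment. It was the only stretch of the 11 with an unadjusted p under 0.05, at 0.0022, against 9.58% of stretches in the series. With all calls counted instead, stretch 10 was called (Fisher's exact test, adjusted p = 1.9e-12), against 5.16% of stretches in the series.

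A count of 2 C calls was more frequent than a count of 1. In the window 37 cytosines had 2 C calls and 13 had 1 in the ATO library, and 46 had 2 and 22 had 1 in the control library. Over the series 201923 had 2 and 117728 had 1 in the ATO library, and 194727 and 118152 in the control library. The processing notes do not say how overlapping mates and duplicate reads were counted, and their part in this was not tested. With all counts halved before the test, neither of the 2 cytosines was called, with adjusted p of 0.14 and 0.10 by Fisher's exact test, while 0.437% of cytosines in the series still were. Stretch 10, with its halved sums also divided for shared fragments, had an adjusted p of 1 by the same test. Halving was chosen after seeing the data.

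Differences of this size were seen elsewhere too. In the series 6081 stretches between 20 and 80% lay within 2000 bp of an unmethylated stretch of at least 15 cytosines, as stretch 10 does. Their median difference was -1.05 points, with quartiles at -7.14 and 4.92 points. Of them 3.88% were lower by at least 20 points and 3.72% were higher by as much. Of the 2213 with 5 to 7 cytosines, every cytosine was lower in the ATO library in 10.9%.

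**Figure D5:**
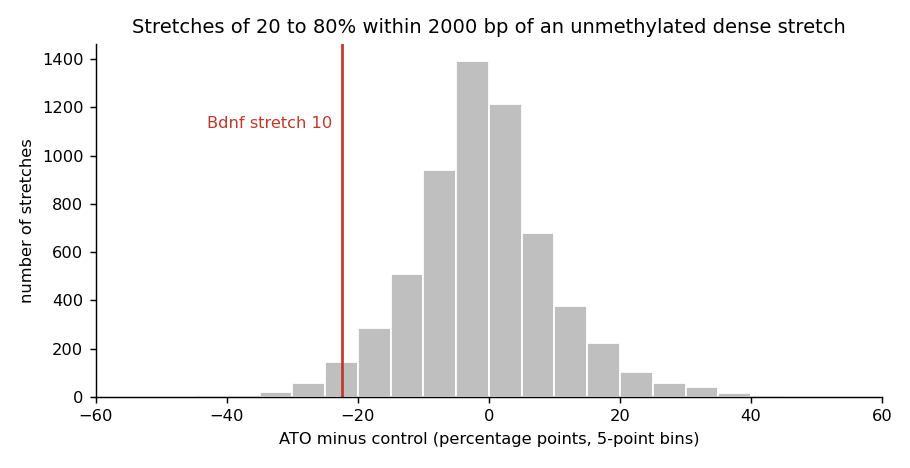
Number of stretches of the series (y axis) by ATO minus control difference (x axis, percentage points, bins of 5 points) for the 6081 stretches of 20 to 80% near unmethylated CpG-dense DNA. The line marks Bdnf stretch 10 at -22.4 points, in the lower tail, where 3.88% of stretches were lower by at least 20 points.

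Stretch 11 lies 29033 to 29382 bp after the P5 start site and was methylated in both libraries. Its 20 cytosines read 95.6% in the ATO library (interval 86.5 to 99.0) and 97.0% in the control library (87.7 to 99.6), a difference of -1.48 points with an interval from -10.1 to 7.85. The ATO library was lower at 8 of the 20 and higher at 7. The median difference of the 32713 stretches of 80% and over in the series was -1.16 points.

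A single cytosine of stretch 11 stood apart in each library. At 109563635 the level was 59.0% in the ATO library (23 of 39 calls, interval 42.1 to 74.4) and 71.4% in the control library (20 of 28, 51.3 to 86.8). It was not called (Fisher's exact test, adjusted p = 0.89). The cytosine 6 bp further, at 109563641, read 100% in both. The others of the stretch lay between 86.0% and 100% in the ATO library and between 90.9% and 100% in the control library.

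Listed cytosines with fewer reads gave a rough view of the rest of the window. On the forward strand among stretches 1 to 6, 0 of 111 calls in the ATO library and 1 of 111 in the control library were C. Within stretch 11 all 13 forward calls in the ATO library and all 28 in the control library were C. Among stretches 7 to 10, 2 of 44 forward calls in the ATO library and 0 of 16 in the control library were C. Among stretches 1 to 6 and within stretch 11 the opposite strand thus read the same 2 states, though from few reads per cytosine. No forward cytosine was listed in stretch 9 or 10, so stretch 10 had no reading on the opposite strand. The 16 forward control calls lay from 109532970 to 109533067, between stretch 7 and the next stretch. Both forward C calls of the ATO library there were at 109534520 in P5. The reverse cytosine of that CpG read 0 C in 6 calls in the ATO library and 0 in 12 in the control library. Before stretch 1, 13 shallow cytosines gave 45.7% in the ATO library (16 of 35 calls, interval 28.8 to 63.4) and 28.2% in the control library (11 of 39, 15 to 44.9). The 4 of them read in both libraries gave 2 C in 19 calls in the ATO library and 7 in 35 in the control library. Between stretches 6 and 7, 10 shallow cytosines gave 26.3% in the ATO library (5 of 19 calls, interval 9.15 to 51.2) and 3.13% in the control library (1 of 32, 0.079 to 16.2). The 4 of them read in both gave 0 C in 14 calls in the ATO library and 1 in 24 in the control library. In both parts the order of the libraries turned once the same cytosines were compared. Between stretches 10 and 11 a single shallow cytosine was read in both libraries, at 109563487 near stretch 11, with 9 C in 13 calls in the ATO library and 4 in 6 in the control library. The cytosines listed next beyond stretch 10, from 109536101 to 109537216, had no C call. Each had only 1 or 2 reads, in 1 library only, so they do not show the level there. After stretch 11, 24 shallow cytosines gave 97.9% in the ATO library (46 of 47 calls) and 91.8% in the control library (45 of 49). In none of these parts did the intervals of the libraries separate. Intervals of shallow cytosines take the calls as independent, so they are too narrow where reads cross several CpGs.

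Over the whole window the mean level was 10.2% ± 25.4 in the ATO library and 10.8% ± 26.1 in the control library (SD over 256 cytosines). The mean difference was -0.66 points and the median 0 points. Without stretch 10 it was -0.14 points over 250 cytosines, a value chosen after seeing the data, so most of the window mean came from these 6 cytosines. The 13128 windows of 65 kb tiled along the genome, each holding 50 or more analysed cytosines, showed a median difference of -0.92 points with quartiles at -2.65 and 0.30 points. The Bdnf window lay between these quartiles. The median level of those windows was 32.8% in the ATO library and 33.9% in the control library. Most cytosines of the Bdnf window read under 10%, where the libraries can differ little, so this is not a like comparison.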

How the data were processed

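CpG methylation was measured by bisulfite sequencing after SureSelect capture in 2 mouse hippocampal libraries. Per the submitters' processing notes, bcl2fastq, Bismark 0.19.0 and Bowtie2 were used with mm9, and trimming, duplicate removal and filters are not stated there. Per the file headers, the deposited coverage is a raw count of C or T calls per cytosine and strand, and freqC is the percent of that coverage read as C. C calls were recovered as coverage times percent, and 100% were whole within 0.005 points in each library. Resistant forms such as hydroxymethylcytosine count as methylated. The ATO library held 147924810 calls and the control library 135987272, and the median coverage of analysed cytosines was 44 and 41 reads.

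Single cytosines were compared by two-sided Fisher's exact tests with Benjamini-Hochberg adjustment over all cytosines with at least 10 reads in both libraries. Stretches of at least 5 cytosines, split at gaps over 200 bp, were tested over the whole genome on summed calls. Because calls on a fragment go together, sums were divided by the peak number of analysed cytosines per 300 bp, and intervals of stretches use these divided sums. A stretch was called at an adjusted p under 0.05 and a difference of at least 20 points. The tests compare 2 libraries, not the exposure. Every stretch of the window, the called cytosines, and the 3 highest and 3 lowest differences with at least 20 reads in both libraries are named, with the highest of a stretch; others were named after their values were seen. A promoter was placed where its best fit scored at least 1.5 times the next best. The window and these settings were chosen with earlier results of these data known. Receptor and partner genes of Bdnf were not analysed here, since no mm9 annotation was used. Python 3.11.15, numpy 2.4.6, pandas 2.3.3, scipy 1.17.1 and numba 0.67.0 were used. Alternatives were other coverage minimums, strands, depths, weights, thresholds and ways to split the stretches.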

Additional observations from a re-analysis of the deposited data

How the results depend on the processing

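The mean difference of the window, -0.66 points, stayed negative in 8 alternatives, of which reverse strand only could not change it, since all members lie there. It was -20.3 points over the 6 cytosines of 20 to 80% alone, of which 3 lie in stretch 10 and the others in stretches 4, 7 and 11. The count of called cytosines was 2 and fell to 0 with counts halved, an alternative chosen after seeing the data. The count of called stretches was 0 and rose to 1, stretch 10, with all calls counted. Of 64 alternative values of the stretch differences, 22 equalled the main value. They came from reverse strand only, which could not change it, and from a coverage minimum of 5, which added no cytosine inside the bounds of the stretches. These 22 values are thus no check. The other 42 stayed within the 95% intervals of the stretches, and 6 of them changed sign. Stretch 7 turned to 1.71, 4.997 and 1.92 points at coverage minimums of 20 and 30 and after thinning, stretch 2 to -0.27 points after thinning, and stretches 3 and 9 to -0.014 and -0.47 points by the mean of cytosine levels. Stretch 10 ranged from -22.4 to -21.9 points. Halving and division lower the effective read number by construction. Depth limits P1 and the TCACGTCA site of P3, which had too few reads. No paired analysis was possible because each group has 1 library, and no replicate could be left out.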
